A study of Mus musculus with 4 samples.

Results

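The LIF-STAT3 pathway genes examined here are *Lifr*, *Il6st*, *Jak1*, *Stat3*, *Socs3*, *Pim1*, *Pim3*, *Junb*, *Gbx2* and *Tfcp2l1* (named *Tcfcp2l1* in older annotations). They were chosen by name as the receptor chains, the kinase, the transcription factor and target genes of this pathway in embryonic stem cells (ESCs), and all 10 were found by symbol among the 48526 Ensembl gene rows of the count files. RNA was sequenced from R1 mouse ESCs, an established line, either wild type (WT) or from clone 2 of a CRISPR knockout of *Zfp296* (KO2), with 2 libraries in each group. KO2 is a single clone, grown from cells that had received Cas9 and a guide RNA against the first exon. The knockout and other differences between this clone and the WT cells therefore cannot be told apart. Both groups grew on gelatine in serum with LIF, the MEK inhibitor PD0325901 and the GSK3 inhibitor CHIR99021, and no library without LIF was analysed. The comparison asks whether RNA of the pathway differed in this knockout of ZFP296, a zinc finger protein that binds the NuRD chromatin complex.

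LIF is the cytokine that keeps mouse ESCs self-renewing. It binds a pair of receptor chains, LIFR and the shared chain gp130 (encoded by *Il6st*), whose bound kinase JAK1 phosphorylates STAT3. Phosphorylated STAT3 enters the nucleus and switches on target genes, among them *Socs3*, whose protein inhibits the receptor and the kinase, and *Tfcp2l1*, *Gbx2*, *Pim1*, *Pim3* and *Junb*. RNA levels do not report the phosphorylation of STAT3, which was not measured in these data.

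Dimers of activated STAT proteins bind DNA at sites of the form TTCNNNGAA, where N is any base. The pattern as written reads the same on both strands, while the middle bases of a given site do not. Among RefSeq promoters (250 bases before to 50 bases after a gene's start, GRCm38.p6), 8.3% of 32851 hold this motif and 1.15% hold its stricter form TTCCNGGAA. All 10 genes had a promoter in that table, and the motif was found in that of *Socs3* alone. Of 44 further pathway genes with a promoter, 4 held it, namely *Icam1*, *Gab1*, *Cish* and *Zfp36*. Both shares, 1 of 10 and 4 of 44 genes, are close to the 8.3%. That background is counted per promoter, while a gene was counted if any of its promoters held the motif. The RNA of *Icam1* and *Gab1* differed between the groups as described further on, while *Cish* and *Zfp36* had too few counts to pass the filter. *Pim1*, *Pramel7* and *Jund*, whose RNA also differed, had no match. *Socs6*, whose RNA differed as well, had no promoter in that table and was not searched. The sites of *Socs3*, *Icam1* and *Gab1*, the holders that were tested, are shown on the strand of the gene, with the motif in capitals and 10 flanking bases on each side, to set the letters beside the expression values.
Socs3: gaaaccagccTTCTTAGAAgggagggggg
Icam1: ggcgcgaggtTTCCCGGAAagtggccccg
Gab1: ccggaggagtTTCAGAGAAagtctgggct

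The *Socs3* sequence lies at chr11:117830816-117830844 on the minus strand of NCBIM37 (mm9), in an intron of the annotated gene. The *Icam1* sequence lies at chr9:20820332-20820360 on the plus strand, upstream of the annotated gene, and holds the stricter form. The *Gab1* sequence lies at chr8:83404372-83404400 on the minus strand, where the motif ends just before the annotated gene starts. Relative to a RefSeq start, which defined the promoters, the motif begins at -154 for *Socs3*, -42 for *Icam1* and 28 for *Gab1*. RefSeq and the mm9 annotation thus place the *Socs3* and *Gab1* motifs on different sides of the gene's start. A match describes these letters only, and its absence from a window of this size says nothing about STAT3 binding elsewhere at a gene.

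The libraries labelled WT held 2829914 and 4334499 gene counts and those labelled KO2 held 7470907 and 7437294, so depth and genotype cannot be told apart. Values are given as CPM, the counts divided by library size and edgeR's TMM factors, and 3 counts, the floor used here, equal 1.12 and 0.709 CPM in WT and 0.38 and 0.401 CPM in KO2. *Zfp296* itself held 31 and 31 counts in the WT libraries and 416 and 282 in the KO2 libraries, a log2 fold change of 2.31 (SE 0.29, adjusted p = 4.64e-05, edgeR's quasi-likelihood test). The targeted gene's RNA was therefore higher in the libraries labelled KO2, and since the counts do not show small insertions or deletions, they do not check the knockout. The paper reports a check of its *Zfp296* knockout clones by mass spectrometry, which measures protein. The Y-linked *Ddx3y* held 0 and 1 counts in the WT libraries and 1979 and 2197 in the KO2 libraries. The groups thus also differ in a Y-linked gene, and the WT libraries are those that nearly lack its RNA. How this difference arose was not tested. All directions below are those of the libraries as labelled. Whether the labels of the groups were exchanged was not tested, and an exchange would turn every direction given here. The 10 ESC markers summed to between 6141 and 6357 CPM in WT and 5971 and 6109 CPM in KO2. *Zfp42* alone gave 1475 to 1813 CPM of this, so the sum says little about less abundant markers. Of the 10, 9 did not pass the test and *Sox2* was lower in KO2 (839 compared to 486 CPM). *Utf1* (log2 fold change -1.39), *Klf2* (-0.35) and *Dppa5a* (0.35) had an unadjusted p under 0.05 (edgeR) without being called. Over all tested genes, 5.64% were called and 19.4% had an unadjusted p under 0.05.

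Markers of other cell types were low or not called. The 6 fibroblast markers, the cells used as feeders, summed to between 0.936 and 3.54 CPM per library, with *Dcn* and *Lum* at 0 in all libraries, and the 4 mesoderm markers to between 0.236 and 1.12 CPM, with *T* and *Mesp1* at 0. The 6 primitive endoderm markers summed to between 3.07 and 10.4 CPM and the 4 trophoblast markers to between 4.06 and 8.69 CPM, and of the 3 and 1 genes tested none passed, at an unadjusted p under 0.05 either (0 with edgeR and 0 with DESeq2). The 4 primed epiblast markers were higher in sum in KO2 (75.9 and 79.0 compared to 96.4 and 102 CPM, *Fgf5* at 0), as were the 3 neural markers found (142 and 147 compared to 185 and 192 CPM). None of their 3 and 2 tested genes was called, with 1 and 2 at an unadjusted p under 0.05 in edgeR and 1 and 1 in DESeq2, and their part in the results below was not tested.

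Of the 10 pathway genes, 9 passed the filter on low counts and 1 passed the test, *Pim1*, which was lower in KO2. Over all 12883 tested genes, 5.64% were called in either direction and 3.04% as lower (edgeR's quasi-likelihood test, Benjamini-Hochberg adjusted p under 0.05), so 1 call of 9 genes (11.1%) amounts to a single gene. The log2 fold changes of the 9 genes ran from -0.62 to 0.23 with a median of -0.07, compared to a median of 0.01 over all tested genes. Their median size without regard to sign was 0.23, compared to 0.27 over all tested genes, and every one lay between the 5th and 95th percentile of all tested genes, -0.88 and 1.13. The 2 KO2 libraries lay outside the range of the 2 WT libraries for 5 of the 9 genes (55.6%), 4 lower and 1 higher, a share close to the 48.8% over all tested genes (23.4% lower and 25.4% higher). An unadjusted p under 0.05 was found for the same number, 5 of 9, compared to 19.4% over all tested genes (edgeR). All 9 had mean levels above 22.5 CPM, the median of the tested genes, and better covered genes reach such a p more easily. The shares and sizes over all tested genes were not matched for coverage. In these bulk libraries, fewer cells that express a gene and less RNA of it per cell cannot be told apart.

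**Figure D1:**
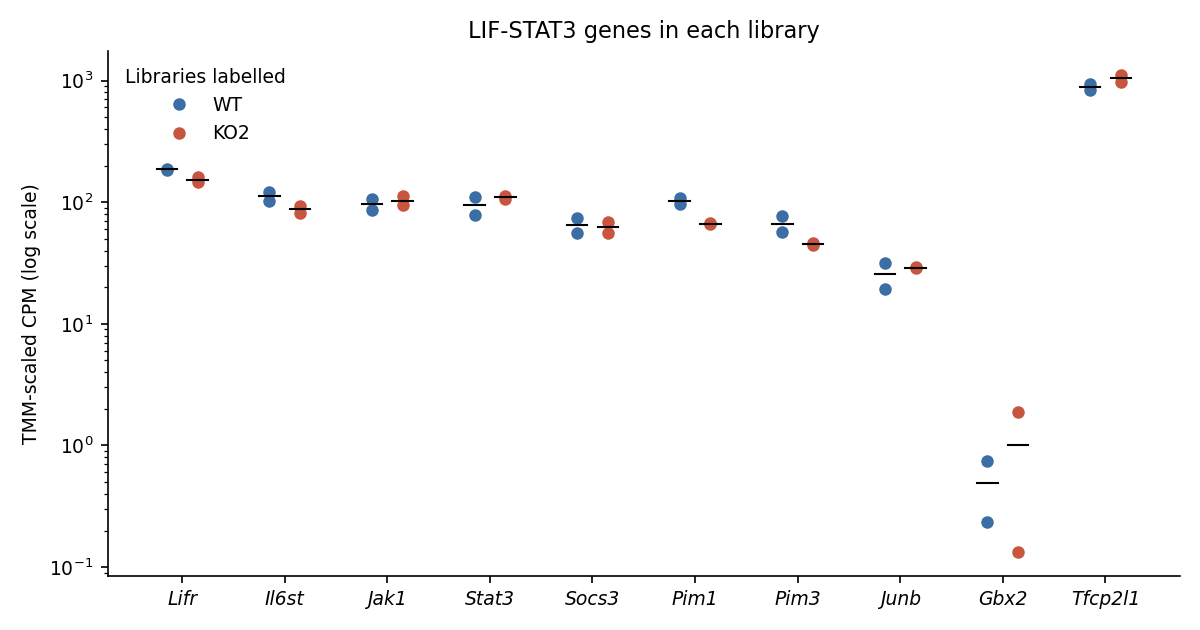
TMM-scaled CPM (vertical axis, log scale) of the 10 LIF-STAT3 genes in each library, with 1 point per library, WT in blue and KO2 in red, and black bars at the group means. *Tfcp2l1* lies highest at 834 to 1118 CPM, *Gbx2* lies at or below 1.9 CPM, and both KO2 points lie below both WT points for *Lifr*, *Il6st*, *Pim1* and *Pim3*.

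*Lifr* (ENSMUSG00000054263, chr15:7079559-7147489, plus strand, mm9) encodes LIFR, the receptor chain that binds LIF together with gp130. Its level was 184.1 and 189 CPM in the WT libraries and 145.6 and 160.8 CPM in the KO2 libraries. Both KO2 values lay under both WT values, by a log2 fold change of -0.28 (SE 0.12), which did not pass the adjustment (adjusted p = 0.195, edgeR's quasi-likelihood test). The 95% interval of this difference ran from -0.54 to -0.03 before adjustment for the number of genes.

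*Il6st* (ENSMUSG00000021756, chr13:113265216-113297068, plus strand) encodes gp130, the signalling chain that LIFR shares with the receptors of the other interleukin-6 family cytokines. It had 102.9 and 121.9 CPM in WT and 92.57 and 81.67 CPM in KO2. The groups did not overlap, with a log2 fold change of -0.37 (SE 0.14), and again the adjusted p missed the threshold (0.147, edgeR). Without WT replicate 2, which held the higher WT value, it was -0.24.

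*Jak1* (ENSMUSG00000028530, chr4:100824972-100937887, minus strand), the kinase bound to gp130, had 106.2 and 85.77 CPM in WT and 94.47 and 111.6 CPM in KO2. The groups overlapped, and the log2 fold change of 0.11 (SE 0.15, adjusted p = 0.754, edgeR) turned to -0.0438 without WT replicate 2 and to -0.01 without KO2 replicate 2. The 95% interval, -0.20 to 0.42, leaves room for differences of either sign. *Raver2*, on the other strand, overlaps *Jak1* in the annotation and held 169 counts over the 4 libraries, against 2228 for *Jak1*.

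*Stat3* (ENSMUSG00000004040, chr11:100746412-100800854, minus strand) had 79.01 and 109.9 CPM in WT and 113.1 and 106.8 CPM in KO2. The KO2 values lay around the upper WT value, and the lower WT library set the difference, with a log2 fold change of 0.21 (SE 0.15, adjusted p = 0.506, edgeR). Without WT replicate 1 it was 0.0011, and without WT replicate 2 it was 0.48, with an adjusted p of 0.127. The difference in RNA of the transcription factor itself was thus within the spread of the WT libraries.

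*Pim1* (ENSMUSG00000024014, chr17:29627757-29632390, plus strand) encodes a serine/threonine kinase that promotes survival and growth and is induced by STAT factors in many cell types. It was covered by 293 and 406 counts in the WT libraries and by 520 and 501 in the deeper KO2 libraries, which gave 109.2 and 95.93 CPM in WT and 65.94 and 66.97 CPM in KO2. The KO2 libraries differed by a factor of 1.02 and lay well under both WT libraries. *Pim1* fell by 0.62 on the log2 scale (SE 0.14, adjusted p = 0.0137, edgeR's quasi-likelihood test), to 0.65 of its WT level. The call was lost without WT replicate 1 (-0.53, adjusted p = 0.114) and without KO2 replicate 1 (-0.60, adjusted p = 0.0599). It was also lost when counts were scaled to the ERCC spike-ins, synthetic RNAs present in each library (-0.53, adjusted p = 0.774), and when genes with low counts were kept (-0.59, adjusted p = 0.193), while the direction held under all 12 alternatives.

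*Pim3* (ENSMUSG00000035828, chr15:88692616-88696150, plus strand), a close relative of *Pim1*, had 57.02 and 76.32 CPM in WT and 46.03 and 44.38 CPM in KO2. Its log2 fold change of -0.57 (SE 0.17) was of similar size to that of *Pim1*, and the adjusted p lay just over the threshold at 0.0589 (edgeR). It passed with RLE normalization (adjusted p = 0.0455), with the replicate number as a block (-0.55, adjusted p = 0.0419, edgeR) and without WT replicate 1 (-0.76, adjusted p = 0.0493), and moved to -0.33 without WT replicate 2 (adjusted p = 0.373). The difference between *Pim1* and *Pim3* was not tested. The third family member, *Pim2*, was measured from few counts, 10 and 36 in the WT libraries and 49 and 32 in the KO2 libraries, with a log2 fold change of -0.31 (SE 0.49, adjusted p = 0.795, edgeR).

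*Socs3* (ENSMUSG00000053113, chr11:117827393-117831361, minus strand) encodes the feedback inhibitor of the pathway. It had 55.9 and 73.72 CPM in WT and 68.73 and 56.01 CPM in KO2, so the values of both groups covered the same range. The log2 fold change was -0.07 (SE 0.17, adjusted p = 0.881, edgeR), with a 95% interval from -0.43 to 0.29. It turned positive without WT replicate 2 (0.16) and without KO2 replicate 2 (0.06).

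*Junb* (ENSMUSG00000052837, chr8:87500811-87502617, minus strand) encodes an AP-1 transcription factor and is an early response gene of LIF. Its WT values of 31.68 and 19.38 CPM lay on either side of the KO2 values of 28.79 and 29.14 CPM. With 85 and 82 counts in WT, it was the least deeply covered of the tested genes of the pathway, and the log2 fold change of 0.22 (SE 0.25, adjusted p = 0.685, edgeR) had a 95% interval from -0.29 to 0.74. It turned to -0.13 without WT replicate 2.

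*Tfcp2l1* (ENSMUSG00000026380, chr1:120524522-120581744, plus strand) encodes a transcription factor of the naive pluripotency network. It was the most deeply covered gene of the pathway, with 2237 and 3994 counts in the WT libraries and 8820 and 7275 in the KO2 libraries. This gave 833.7 and 943.7 CPM in WT and 1118 and 972.5 CPM in KO2, without overlap, the upper WT value lying close to the lower KO2 value. The log2 fold change was 0.23 (SE 0.11), with a 95% interval from 0.0098 to 0.46, and did not pass the adjustment (adjusted p = 0.237, edgeR). Leaving out 1 library at a time moved it between 0.13 and 0.33.

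*Gbx2* (ENSMUSG00000034486, chr1:91824537-91829865, minus strand), a homeobox gene, was close to the detection limit. It held 2 and 1 counts in the WT libraries and 15 and 1 in the KO2 libraries, and did not pass the filter on low counts. Of the 4 libraries, 3 lay under the floor of 3 counts, and only KO2 replicate 1, at 1.9 CPM, lay above it. The exact 95% Poisson interval of that library, 1.06 to 3.14 CPM, did not reach that of KO2 replicate 2, 0.0034 to 0.745 CPM, so the KO2 libraries differed from each other by more than counting error. Taken over many genes, replicates also differed by more than counting error. Between replicates, the chi-square per degree of freedom was 21.3 in KO2 (15300 genes) and 5.92 in WT (12900 genes). This value grows with counts, and the KO2 libraries were deeper. It does not show how often genes with few counts spread as *Gbx2* did. The Poisson intervals of *Gbx2* cover counting error only, and no fold change is given because the groups are not separated from the floor. *D130058E05Rik*, on the other strand, overlaps *Gbx2* in the annotation and held 11 counts over the 4 libraries, against 19 for *Gbx2*.

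**Figure D2:**
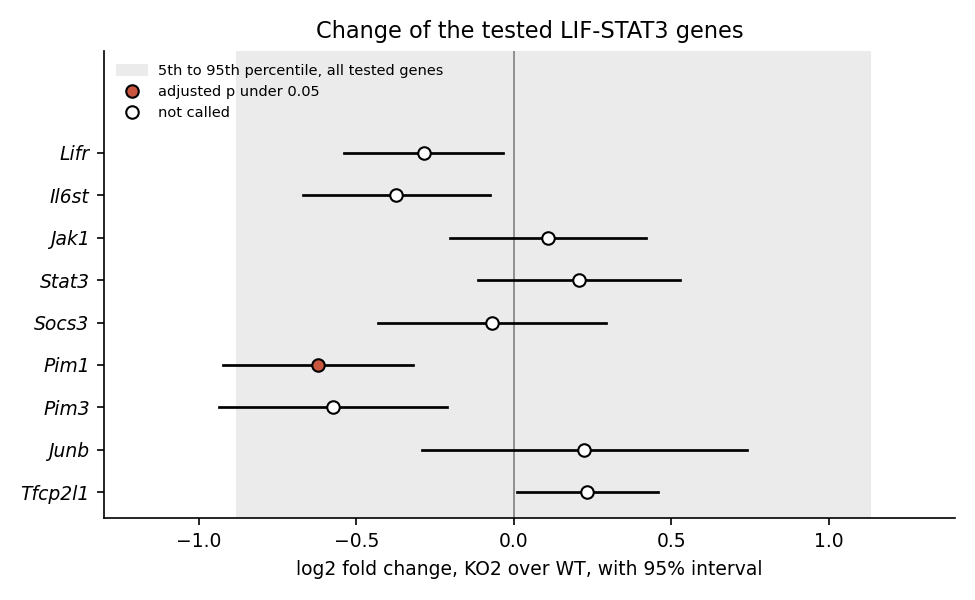
Log2 fold change of KO2 over WT (horizontal axis) for the 9 tested LIF-STAT3 genes, with bars for the unadjusted 95% interval and a grey band from the 5th to the 95th percentile of all 12883 tested genes. *Pim1* (filled, -0.62) is the only gene called, and the points of all 9 lie within the band.

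To compare levels between genes, the TMM-scaled counts were divided by the length of the union of each gene's exons (RPKM). On this scale *Tfcp2l1* stood first in both groups, at 95.9 ± 8.4 in WT and 113 ± 11 in KO2 (SD, n = 2), and at the 95.6th percentile of the tested genes. *Pim1* followed at 52.0 ± 4.8 in WT and 33.7 ± 0.37 in KO2. *Pim3*, *Socs3* and *Il6st* came next at 27.5 ± 5.6, 22.4 ± 4.4 and 21.6 ± 2.6 in WT, and these neighbours did not differ beyond their spread. *Lifr* had 18.1 ± 0.34 in WT, above the single values of *Junb* (17.5 and 10.7) and *Jak1* (14.7 and 11.9), while *Junb* and *Jak1* overlapped. With this length *Stat3* was the lowest of the tested genes at 9.91 ± 2.3 in WT and 11.5 ± 0.47 in KO2, and *Gbx2* had 0.116 ± 0.085 and 0.24 ± 0.29. Between the groups, *Pim3* and *Socs3* exchanged the third and the fourth place, and *Lifr* and *Junb* the sixth and the seventh. The values of *Jak1* and *Stat3* depend on the chosen length, since both have many annotated transcripts (8 and 14) and a union of exons well over their longest transcript. With the longest transcript as length, *Stat3* had 15.6 in WT and 18.2 in KO2, above *Junb* at 14.1 and 16.0, and the lowest tested gene was then *Junb* in WT and *Lifr*, at 15.9, in KO2.

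**Figure D3:**
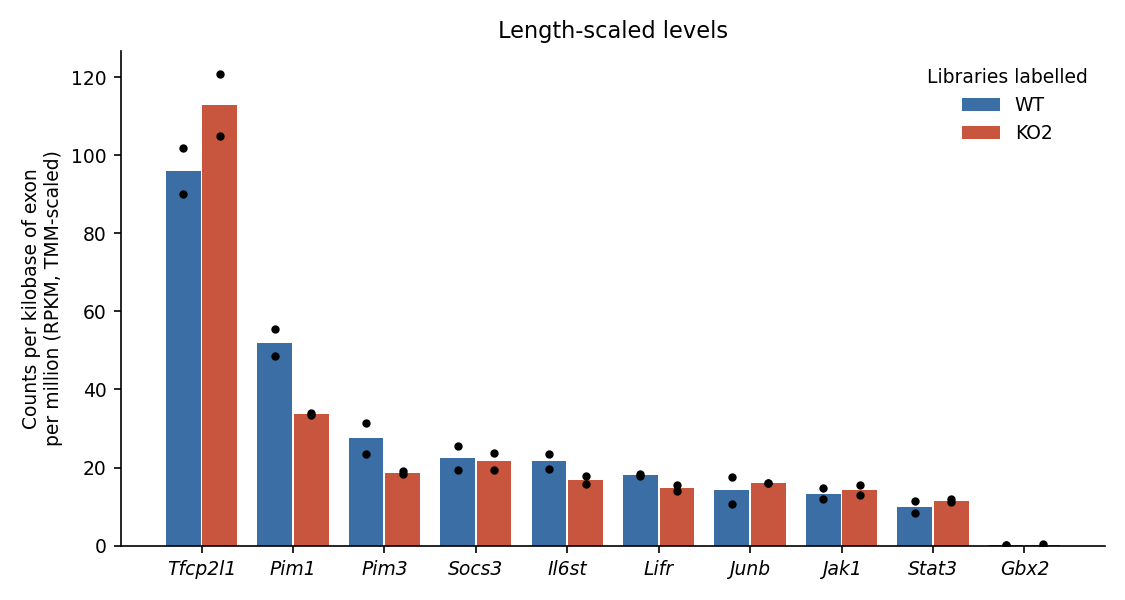
Length-scaled level (vertical axis, RPKM on the TMM scale, linear from 0) of the 10 genes in order of the WT mean, with bars for the group means and points for the single libraries. *Tfcp2l1* stands at 95.9 in WT and 113 in KO2, *Pim1* at 52.0 and 33.7, and the receptor, kinase and STAT3 genes between 9.91 and 21.6.

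The 10 genes lie on 7 chromosomes, whose tested genes had median log2 fold changes between -0.02 (chromosome 4) and 0.06 (chromosome 17). *Pim1* lies on chromosome 17 (quartiles -0.20 and 0.30) and *Pim3* on chromosome 15 (median 0.06, quartiles -0.20 and 0.36). Whether a regional shift had a part in their changes was not tested. Within 100 kb of the 10 genes, 30 other genes were tested and none was called by edgeR's quasi-likelihood test or DESeq2, with 3 and 2 at an unadjusted p under 0.05. They were unevenly spread, with 14 near *Junb* and 0 near *Lifr*. The 2 tested genes near *Pim1*, *Tbc1d22b* and *Ftsjd2*, had log2 fold changes of 0.53 and 0.58 (SE 0.38 and 0.66).

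A wider list of 61 genes around the pathway was read from the same fit, of which 47 passed the filter. Of these, 3 were higher and 2 lower in KO2, or 10.6% against the 5.64% over all tested genes, and 42 were not called, with a median log2 fold change of -0.07. The 5 genes called were *Pramel7*, *Jund*, *Gab1*, *Icam1* and *Socs6*. With ERCC scaling and without the filter on low counts, none of the 5 was called by edgeR (6 of 47 and 12 of 58 genes of the list had an unadjusted p under 0.05), and without WT replicate 1 only *Icam1* was.

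Of the 7 ligands of the family, *Lif* itself was covered by 11 to 18 counts per WT library and 61 to 90 per KO2 library. Its level was 6.71 and 2.6 CPM in WT, and 11.4 and 8.15 CPM in KO2. The KO2 values lay above the WT values, and the log2 fold change of 1.20 (SE 0.50) did not pass the test (adjusted p = 0.185, edgeR). *Il6*, *Il11* and *Clcf1* had no counts in any library. Among the other receptor chains, *Il6ra*, the chain specific for interleukin-6, had 13.4 and 10.2 CPM in WT and 6.34 and 4.01 CPM in KO2, and likewise did not pass (log2 fold change -1.15, SE 0.42, adjusted p = 0.128, edgeR). *Il11ra1*, *Cntfr* and *Osmr* did not pass the filter.

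None of the 3 other JAK kinases and none of the 5 tested STAT genes was called by edgeR or DESeq2, and 0 of either had an unadjusted p under 0.05. *Tyk2* and *Stat2*, the highest of each group per length of exon in the mean over the 4 libraries, had log2 fold changes of 0.24 (SE 0.21) and 0.10 (SE 0.20). *Stat5a*, which overlaps *Stat3* on the other strand in the annotation, held 28 counts over the 4 libraries and was not tested.

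Of the 14 inhibitors and phosphatases, 12 were tested and *Socs6* was lower in KO2. *Socs6*, a member of the suppressor of cytokine signalling family, had 78.3 and 74.7 CPM in WT and 45.9 and 51.6 CPM in KO2, so the replicates of each group lay close together. It fell by 0.65 on the log2 scale (SE 0.16, adjusted p = 0.0193, edgeR), and the adjusted p was 0.0515 with DESeq2. The call was also lost without WT replicate 1 (-0.62, adjusted p = 0.104), without WT replicate 2 (-0.68, adjusted p = 0.0588) and without KO2 replicate 1 (-0.56, adjusted p = 0.142, edgeR). *Socs2* had a log2 fold change of -0.14 (SE 0.18), and *Pias2*, the highest of the group per length in both groups of libraries, one of -0.09 (SE 0.11).

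The adaptors that link gp130 to the ERK and PI3K pathways include *Gab1*, a docking protein. It had 96.5 and 116 CPM in WT and 162 and 143 CPM in KO2 and rose by a log2 fold change of 0.51 (SE 0.14, adjusted p = 0.0322, edgeR; 0.055 with DESeq2). The call was also lost without WT replicate 1 (0.39, adjusted p = 0.212) and without KO2 replicate 1 (0.42, adjusted p = 0.208, edgeR). *Ptpn11*, which encodes the phosphatase SHP2 that binds gp130 and GAB1, was at 0.42 (SE 0.14, adjusted p = 0.0957, edgeR). The other 4 genes of this group were not called.

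Among the 16 other LIF or STAT3 response genes, 13 were tested, 1 was higher and 1 lower. *Pramel7*, a PRAME family gene that supports ESC self-renewal downstream of STAT3, had 11.6 and 17.5 CPM in WT and 33.5 and 39.4 CPM in KO2. It rose by a log2 fold change of 1.28 (SE 0.25, adjusted p = 0.00465, edgeR), or 2.43-fold, and reads shared with its close relatives may be missing from its counts. *Icam1*, a cell adhesion molecule whose promoter site is printed above, had 55.9 and 57.4 CPM in WT and 32.2 and 26.2 CPM in KO2. It fell by 0.96 on the log2 scale (SE 0.19, adjusted p = 0.00397, edgeR). *Klf4* and *Tbx3*, transcription factors of the naive network that respond to LIF, had log2 fold changes of -0.11 and -0.18 (SE 0.11 and 0.11), and *Mcl1*, the highest of the group per length in the mean over the 4 libraries, one of -0.21 (SE 0.11). None of these passed, and *Klf5* at -0.61 (SE 0.23, adjusted p = 0.153, edgeR) did not either. The early response gene *Fos* held 1 and 3 counts in the WT libraries and 22 and 27 in the KO2 libraries, and was not called (log2 fold change 2.42, SE 0.89, adjusted p = 0.13, edgeR).

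Among the paralogues of the 10 genes, *Jund*, the AP-1 relative of *Junb*, had 20.1 and 29.3 CPM in WT and 52.1 and 45.6 CPM in KO2. It rose by a log2 fold change of 0.95 (SE 0.21, adjusted p = 0.0112, edgeR), while *Junb* was not called. The difference between these genes was not tested. *Tfcp2* and *Ubp1*, the relatives of *Tfcp2l1*, were at -0.0087 and -0.33 (SE 0.27 and 0.14) and were not called.

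**Figure D4:**
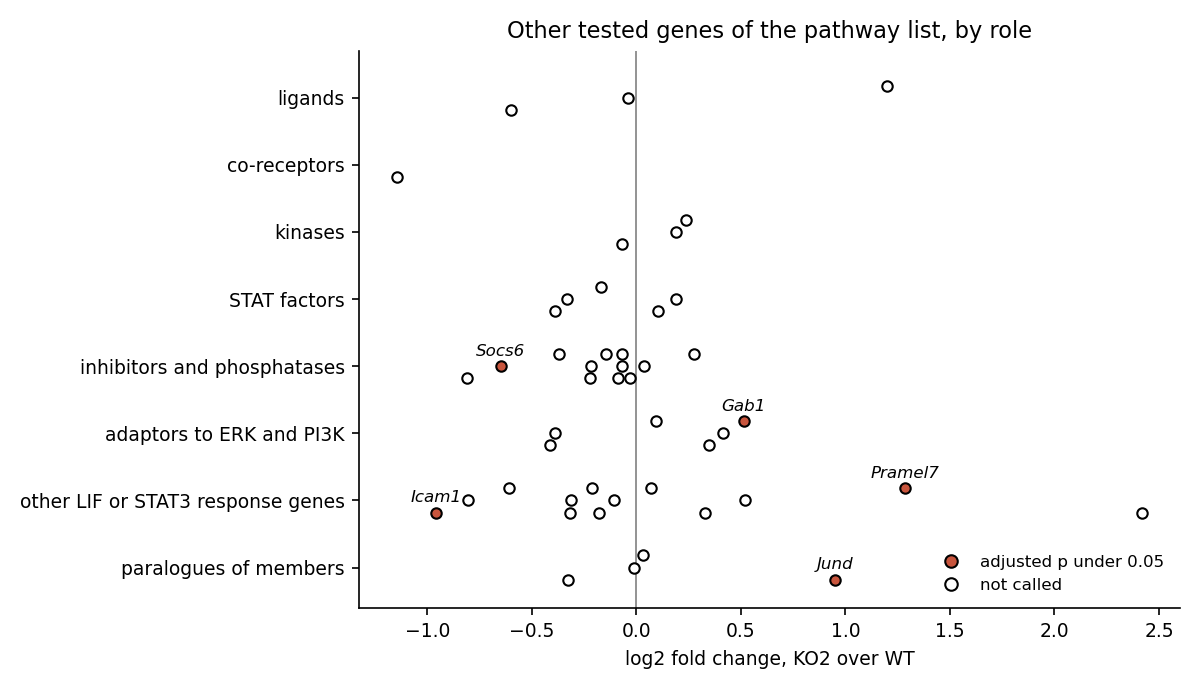
Log2 fold change of KO2 over WT (horizontal axis) of the 47 tested genes of the wider list, arranged by role, with 1 point per gene and filled points for an adjusted p under 0.05. The 5 filled points are *Socs6*, *Icam1*, *Gab1*, *Jund* and *Pramel7*, and the open point farthest to the right is *Fos*, at 2.42 from few counts.

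**Figure D5:**
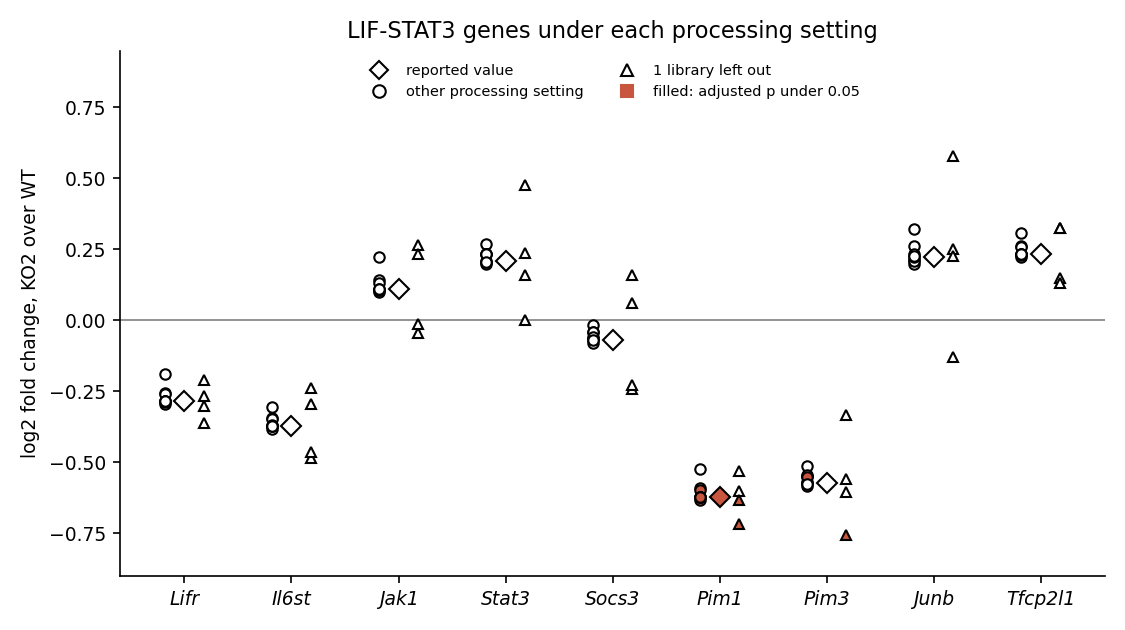
Log2 fold change of KO2 over WT (vertical axis) of the 9 tested LIF-STAT3 genes as reported (diamonds), under 8 other processing settings (circles) and with 1 library left out (triangles), filled where the adjusted p was under 0.05. Filled points occur for *Pim1* and *Pim3* alone, and the points of *Jak1*, *Socs3* and *Junb* fall on both sides of 0.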

How the data were processed

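Counts per gene were analysed from 2 WT and 2 KO2 libraries of rRNA-depleted, strand-specific RNA-seq, grouped by their labels. The authors mapped reads to mm9 with hisat2 and deposited raw counts per gene from HTSeq. Versions, annotation and the strand setting are not given in the sources used here. HTSeq's summary rows (52.9% to 58.8% of all counts) and 92 ERCC rows were left out. Symbols came from a separate list of gene names, or from GENCODE vM1 where that had none, and mm9 coordinates from GENCODE vM1. Each source held 32782 of 48526 identifiers. The older symbols *Tcfcp2l1* and *Tcfcp2* were changed to *Tfcp2l1* and *Tfcp2*.

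Counts were filtered with filterByExpr (minimum count 10, minimum total 15), TMM-normalized and tested with glmQLFit (legacy=FALSE) and glmQLFTest in edgeR 4.0.16 (R 4.3.3), with Benjamini-Hochberg adjustment over all tested genes and a threshold of 0.05. The SE is the log2 fold change over the square root of the F statistic. The study used DESeq2, an alternative here (1.42.0). The fits were tested on simulated counts. Values are mean ± SD.

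The members, the pathway and marker lists and the alternatives were chosen with earlier results of these data known. All members were named, and of the pathway list the genes called, the highest of each role per length (mean over the 4 libraries) and, after their values were seen, a few others. The labels call the replicates biological without naming their source, so p-values measure the spread between these libraries. An exact permutation test of 2 against 2 cannot go below p = 0.333.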

Additional observations from a re-analysis of the deposited data

How the results depend on the processing

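Of the 10 genes, 1 was called in the reported fit, 2 with RLE normalization, 0 with ERCC scaling and 0 without the filter on low counts (0 and 3 at an unadjusted p under 0.05, edgeR). Of the other pathway genes, 5 were called, and 0 under either of these settings. Leaving out 1 library gave 0 to 1 calls, with 0 without KO2 replicate 1 (3 at an unadjusted p under 0.05, edgeR). It gave 1 to 5 among the other pathway genes, 1 without WT replicate 1 and 3 without KO2 replicate 1. Of all genes, 726 were called as reported, and 270 without WT replicate 1, 420 without WT replicate 2, 466 without KO2 replicate 1 and 691 without KO2 replicate 2. All genes called were 163 with ERCC scaling, 61 without the filter and 454 with DESeq2, which called 3 of the other pathway genes. With the replicate number as a block, 2 of the 10 genes and 946 of all genes were called, and *Pim3* passed (-0.55, adjusted p = 0.0419, edgeR). The numbers were not taken as pairs, since deviations of same-numbered libraries correlated at -0.0066 across genes. Without WT replicate 1, the gene called among the 10 was *Pim3* (-0.76) and not *Pim1* (-0.53). With 1 library left out, signs turned for *Jak1* (-0.0438 and -0.01, range up to 0.26), *Socs3* (0.16 and 0.06, range from -0.24) and *Junb* (-0.13, range up to 0.58), and the cause was not tested. With the longest transcript as length, *Lifr*, *Jak1* and *Stat3* had 19.3, 19.6 and 15.6 RPKM in WT. The ERCC share of gene counts ran from 0.0695% to 0.094%, and the SE of *Pim1* was 0.34 with this scaling. Keeping low genes moved the median log2 fold change of all genes from 0.01 to 0.12. Depth sets the floor of 3 counts at 0.38 to 1.12 CPM, and *Gbx2* lay under it in 3 of 4 libraries.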
